A study of Arabidopsis thaliana with 5 samples.

Results

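AT5G39370 is a protein-coding gene of Arabidopsis thaliana whose transcript region gave double-stranded RNA (dsRNA) and 21-nt small RNAs (smRNAs) from both strands in wild-type flower buds. The gene lies on the Watson (forward) strand at Chr5:15757717-15758109 in the TAIR9 coordinates of the read files, is 393 nt long, and consists of a single coding exon without an intron. Its annotated product belongs to the curculin-like family of mannose-binding lectins, proteins with a sugar-binding fold. It is 1 of 27444 nuclear protein-coding genes, and it was chosen by the excess of dsRNA and smRNA reads in wild-type over rdr6 plants, together with an interval of 4 kb that reaches 1716 nt before its first base and 1891 nt past its last base. Values of that contrast are therefore a description and carry no test. The study compared unopened flower buds in 5 libraries, 1 for each condition. The dsRNA-seq libraries were rdr6 after 1 round of rRNA depletion (1X), wild-type Col-0 after 2 rounds (2X) and wild-type Col-0 after 1 round (1X). The smRNA-seq libraries were rdr6 and wild-type Col-0. The mutant carries rdr6-11, the only mutant allele used, in the Col-0 background. All dsRNA was what remained after digestion with a ribonuclease specific for single strands, from RNA pooled from 3 biological replicates, so that no difference between libraries has a replicate check.

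RDR6 is an RNA-dependent RNA polymerase that copies single-stranded transcripts into dsRNA. In plants such dsRNA is cut by the Dicer-like enzyme DCL4 into small interfering RNAs (siRNAs) of uniform length, released as duplexes whose strands overhang at their 3′ ends. Where cutting starts at a fixed end, for example after a microRNA has guided cleavage of the transcript, successive siRNAs follow in a single register, which is called phasing and is best known from the TAS transcripts.

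The interval holds 5 annotated genes. AT5G05905, a non-coding RNA gene of unknown role, lies on the same strand just before AT5G39370 at Chr5:15757451-15757709. MIR3933 (AT5G05915), a microRNA precursor of 88 nt, follows on the same strand at Chr5:15758105-15758192 and shares its first 5 bases with the end of AT5G39370. On the opposite strand lie AT5G39365, a defensin-like gene, at Chr5:15756106-15756911, and AT5G39380, a calmodulin-binding protein-like gene, at Chr5:15758717-15761747. In Col-0 smRNA, overlapping and adjacent reads formed 1 cluster over AT5G39370, of 496 nt and 1003 reads, which began 71 nt before the gene and ended 32 nt past it, inside MIR3933. These 71 nt before the gene, most of which belong to AT5G05905, are called the upstream stretch below.

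The sequences with most reads in the cluster are shown because a single stretch of the Crick (reverse) strand supplied the leading sequence of 4 of the libraries, all but rdr6 smRNA. The letters are those of the reference genome at the position of the read, 5′ to 3′, since the sequences of the reads are not part of the files used and alignments allowed up to 6% of mismatches. Among the leading sequences 6 different ones end at 15757687 to 15757689, and capitals mark the 14 bases (15757689 to 15757702) that all of them hold.
rdr6 dsRNA 1X, 2 reads: ccgacACCGGAACUUAGGGc
Col-0 dsRNA 2X, 67 reads: ccgacACCGGAACUUAGGGc
Col-0 dsRNA 2X, 30 reads: ACCGGAACUUAGGGc
Col-0 dsRNA 1X, 39 reads: cgacACCGGAACUUAGGGc
Col-0 dsRNA 1X, 35 reads: cgacACCGGAACUUAGGG
Col-0 smRNA, 70 reads: ccgacACCGGAACUUAGGGcc
Col-0 smRNA, 48 reads: accgacACCGGAACUUAGGGc
The next Col-0 smRNA sequences lie inside the gene, at 15758015 to 15758035 on the Watson strand, at 15757751 to 15757771 on the Crick strand and at 15757752 to 15757772 on the Watson strand. The last pair cover the same bases on opposite strands but for 1 base at each end, and capitals mark the first base of each.
Col-0 smRNA, Watson, 44 reads: Guugggauaagaagucggguc
Col-0 smRNA, Crick, 35 reads: Gagugucucuguuggcaaccc
Col-0 smRNA, Watson, 32 reads: Gguugccaacagagacacucc
The leading sequence of rdr6 smRNA was miR3933 itself, with 13 reads, shown with its seed (bases 2 to 8) in capitals and then within its hairpin, where capitals mark the mature positions and the stretch on the other arm (15758166 to 15758186) that pairs with them.
miR3933: aGAAGCAAaaugacgacucgg
MIR3933 hairpin: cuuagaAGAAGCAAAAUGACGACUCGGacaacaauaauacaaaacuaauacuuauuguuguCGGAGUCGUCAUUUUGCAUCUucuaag

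The libraries held between 8193747 and 13773151 mapped reads of 15 to 38 nt, and 2317892 to 6814360 of them had a single location in the genome. Reads were counted at every location by their leftmost base and scaled to reads per 1000000 mapped reads (RPM) of the same library. All intervals are exact Poisson, exact binomial or Wilson intervals at 95%, and they cover counting error only. The labels of the rdr6 libraries were checked on the TAS genes, whose transcripts are known substrates of RDR6: of the 7 with reads in Col-0 smRNA, all had fewer dsRNA and smRNA reads in rdr6, with log2 ratios of -4.40 to -7.23 in dsRNA, where rdr6 had reads, and -4.58 to -7.97 in smRNA. Flower bud markers could not be checked, since neither assay measures mRNA levels.

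Within AT5G39370 there were 3 reads in rdr6 dsRNA 1X, 20 in Col-0 dsRNA 2X, 55 in Col-0 dsRNA 1X, 10 in rdr6 smRNA and 748 in Col-0 smRNA. In RPM these counts stand at 0.366 (0.0755 to 1.07), 1.45 (0.887 to 2.24), 5.34 (4.02 to 6.95), 0.899 (0.431 to 1.65) and 70.1 (65.1 to 75.3). In order of level, Col-0 smRNA stood first and Col-0 dsRNA 1X second, and neither interval reached that of its neighbour, while the intervals of Col-0 dsRNA 2X, rdr6 smRNA and rdr6 dsRNA 1X overlapped from each to the next. The ratio of rdr6 to Col-0 on the log2 scale was -3.87 in dsRNA 1X (interval -6.19 to -2.24), which is 14.6-fold lower in rdr6. In smRNA it was -6.28 (-7.35 to -5.40), which is 77.9-fold lower in rdr6.

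The upstream stretch, though only 71 nt long, held more dsRNA reads than the gene in both Col-0 libraries. It gave 3 reads in rdr6 dsRNA 1X, 211 in Col-0 dsRNA 2X, 152 in Col-0 dsRNA 1X, 0 in rdr6 smRNA and 221 in Col-0 smRNA. Counted as non-redundant sequences, the order turned in Col-0 dsRNA 1X, with 30 in the upstream stretch and 42 in the gene, and held in Col-0 dsRNA 2X, with 48 and 18. The log2 ratio of rdr6 to Col-0 dsRNA 1X was -5.33 (-7.63 to -3.76), and the 0 reads of rdr6 smRNA allow a level of at most 0.270 RPM at the limit of 3 counts, against 20.7 RPM in Col-0 smRNA. AT5G05905, which this stretch mostly belongs to, had 4, 211, 149, 0 and 215 reads in the same order of libraries, nearly all of them in those 71 nt. The outer genes were close to empty, with 0 dsRNA reads and 1 rdr6 smRNA read at AT5G39365, and 3, 8 and 3 dsRNA reads and 0 smRNA reads in the part of AT5G39380 inside the interval.

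**Figure D1:**
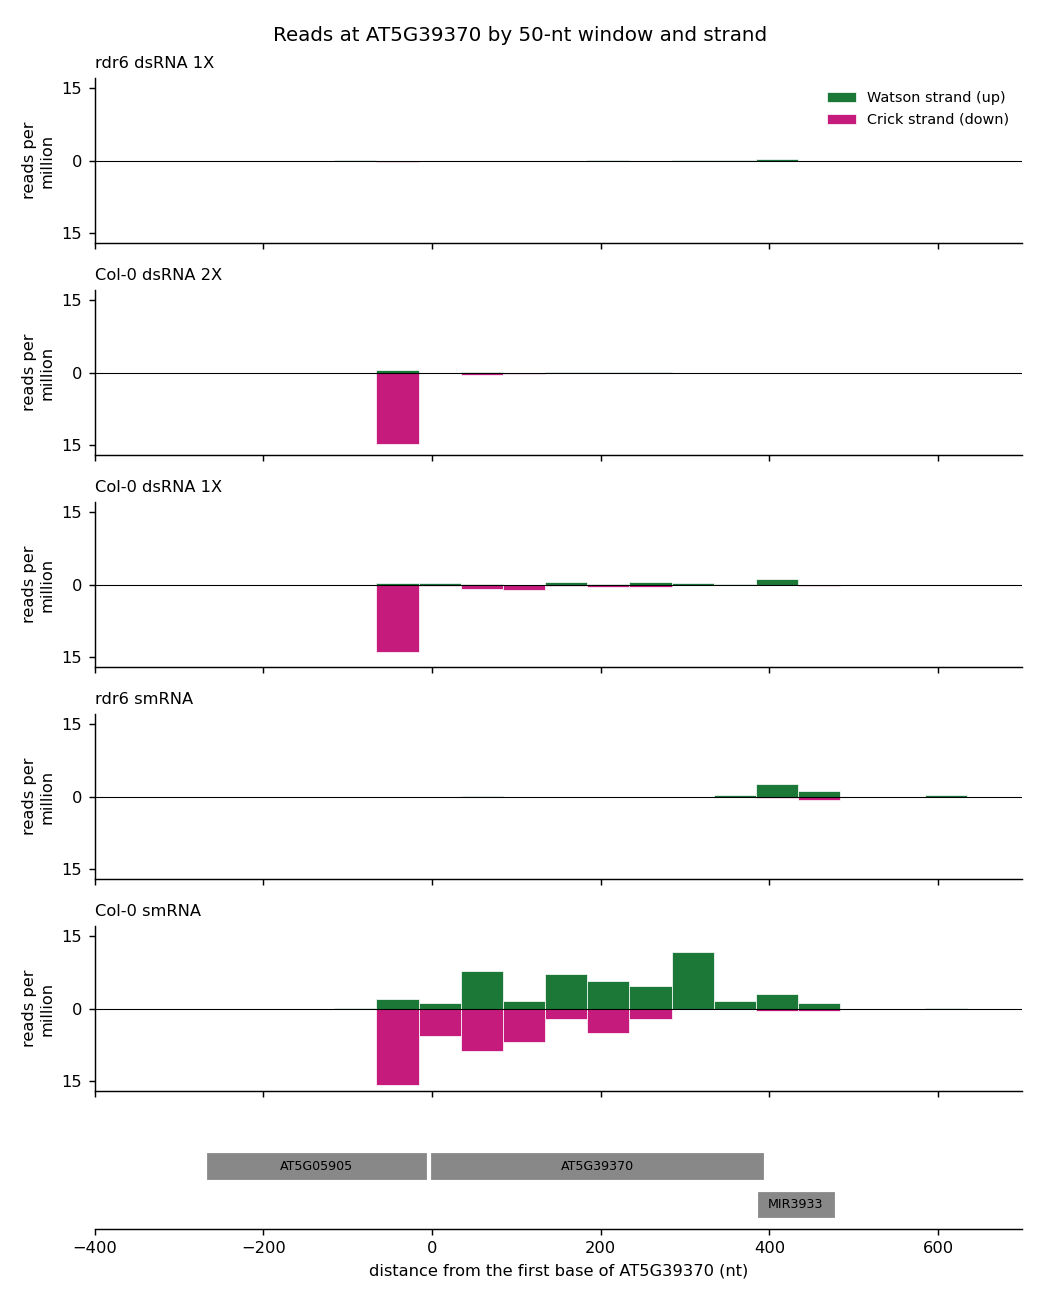
RPM in 50-nt windows, Watson strand upward and Crick strand downward, by distance from the first base of AT5G39370, with 1 panel for each library and the annotated genes in grey below. The window just before the gene holds 211 of 239 reads of the interval in Col-0 dsRNA 2X and 147 of 223 in Col-0 dsRNA 1X, nearly all on the Crick strand, while Col-0 smRNA spreads over both strands of the gene and rdr6 smRNA is left with the MIR3933 hairpin.

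Windows of 50 nt show how uneven the dsRNA was. At 15757651 to 15757700 there were 3 reads in rdr6 dsRNA 1X, 211 in Col-0 dsRNA 2X, 147 in Col-0 dsRNA 1X, 0 in rdr6 smRNA and 190 in Col-0 smRNA. This 1 window of 80 held 88.3% of the interval's reads in Col-0 dsRNA 2X and 65.9% in Col-0 dsRNA 1X, but 18.5% in Col-0 smRNA. The other windows held at most 7 reads in Col-0 dsRNA 2X and at most 12 in Col-0 dsRNA 1X. In Col-0 smRNA 4 further windows, all within the gene, held 178, 127, 115 and 99 reads. Inside the exon the dsRNA was low but spread, with 7 to 12 reads of Col-0 dsRNA 1X in each of the 5 windows that begin 34 to 234 nt into the gene, where Col-0 smRNA had 72 to 178. Reads from both strands met in 0 of 9 windows with reads in rdr6 dsRNA 1X, 5 of 13 in Col-0 dsRNA 2X, 6 of 14 in Col-0 dsRNA 1X, 2 of 7 in rdr6 smRNA and 12 of 13 in Col-0 smRNA.

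In rdr6 smRNA the reads that remained were not those of the gene. Its 2 leading windows, 15758101 to 15758150 with 32 reads and 15758151 to 15758200 with 20 reads, cover the MIR3933 hairpin and held 52.5% and 32.8% of its 61 reads in the interval. Before the hairpin, the cluster held 6 reads in rdr6 smRNA against 967 in Col-0 smRNA, a log2 ratio of -7.39 (-8.84 to -6.26). The same stretch held 6 reads in rdr6 dsRNA 1X against 206 in Col-0 dsRNA 1X, a log2 ratio of -4.77 (-6.24 to -3.63).

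Counted in bins of 1 kb, as the study did, the interval has 4 bins. A bin was called where scaled reads differed at least 2-fold and the one-sided exact test of Audic and Claverie gave a p under 0.001. Called lower in rdr6 were 1 bin in dsRNA, with 5 reads in rdr6 against 201 in Col-0, and 2 bins in smRNA, with 2 against 820 and 58 against 205. Over all bins with reads, 4.99% were called lower in rdr6 in dsRNA, 0.719% in smRNA and 0.165% in both. Since the locus was chosen by this contrast, nothing further is read from these calls. Between the Col-0 dsRNA libraries, of which 1X is also the wild-type side of the contrast that chose the gene, 1 of the 4 bins was called lower in 2X, the one with MIR3933 and the end of the gene, with 1 read in 2X against 19 in 1X, and over all bins 16.6% were called in this direction.

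The Col-0 dsRNA libraries are set side by side here without a test, since the 1X reads took part in the choice of the gene. AT5G39370 had 20 reads in Col-0 dsRNA 2X against 55 in Col-0 dsRNA 1X, a log2 ratio of -1.88 (-2.70 to -1.12) and 3.68-fold lower in 2X. The upstream stretch had 211 reads in 2X against 152 in 1X, a log2 ratio of 0.05 (-0.25 to 0.36). MIR3933, counted by leftmost base like the others, had 0 reads in 2X against 14 in 1X. With reads scaled by all mapped reads, the gene and MIR3933 were thus lower in 2X while the interval of the upstream stretch holds 0. Scaled by reads with 1 location, the log2 ratio of the gene was -1.50. Such a change of scale raises the ratio of the upstream stretch as well, and whether its interval would still hold 0 was not tested. Each value compares 1 library with another. The 2X library differs from the 1X library also in its 3′ adapter as labelled. It holds reads down to 15 nt, where the others begin at 17 nt. On the Crick strand of 2X, 34 reads of the upstream stretch had 15 nt and 15 had 16 nt, and 4 reads of the gene had 16 nt. The ratios include these short reads, and the part of adapter and read length in them was not tested.

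**Figure D2:**
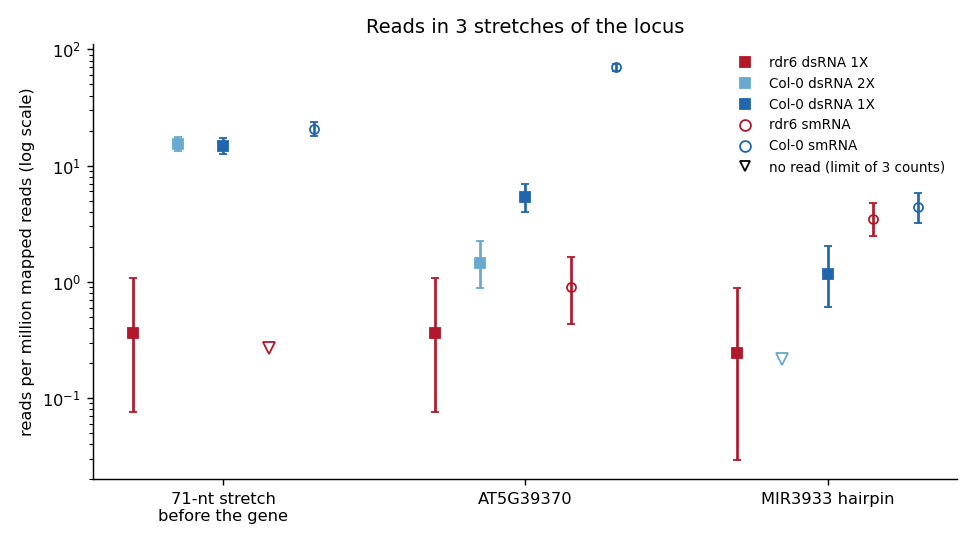
RPM (log scale) in the 71-nt stretch before the gene, in AT5G39370 and wholly inside the MIR3933 hairpin, with 1 point for each library, bars for the exact 95% Poisson interval and open triangles for the limit of 3 counts where a library had no read. The intervals of both Col-0 dsRNA libraries overlap in the stretch before the gene, with reads of all lengths counted. The gene is lower in 2X than in 1X, and the hairpin is the one place where rdr6 smRNA and Col-0 smRNA overlap.

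The dsRNA of the upstream stretch was a pile of Crick reads with a common 3′ end. Of the Crick reads in its window, those whose 3′ end lay at 15757687 to 15757689, about 29 nt before the gene, were 3 of 3 in rdr6 dsRNA 1X, 203 of 203 in Col-0 dsRNA 2X, 140 of 144 in Col-0 dsRNA 1X and 154 of 169 in Col-0 smRNA. The ends were shared, but the lengths were not. Reads of the pile had a median length of 20 nt in rdr6 dsRNA 1X, 20 nt in Col-0 dsRNA 2X, 19 nt in Col-0 dsRNA 1X and 21 nt in Col-0 smRNA, with ranges of 19 to 20, 15 to 34, 17 to 26 and 19 to 23 nt. Reads of 15 to 20 nt made up 168 of the 203 reads in Col-0 dsRNA 2X and 130 of the 140 reads in Col-0 dsRNA 1X, but 18 of the 154 in Col-0 smRNA, where 128 reads had 21 nt.

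At single-base resolution dsRNA and smRNA of the pile mostly differed in length or end. The 20-nt position 15757688 to 15757707 held 2 reads in rdr6 dsRNA 1X, 83 in Col-0 dsRNA 2X, 27 in Col-0 dsRNA 1X and 0 in Col-0 smRNA. The 19-nt position 15757688 to 15757706 held 1, 18, 43 and 0 reads in the same libraries. The 21-nt position 15757687 to 15757707, the leading one of Col-0 smRNA with 74 reads, held 0, 1 and 2 dsRNA reads. Only the 21-nt position 15757688 to 15757708 was well filled in both assays, with 27 reads in Col-0 dsRNA 2X, 4 in Col-0 dsRNA 1X and 53 in Col-0 smRNA. Of the 15-nt reads at 15757688 to 15757702, all 32 came from Col-0 dsRNA 2X, the one library with reads that short.

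Along the cluster, dsRNA and smRNA followed each other more closely on the Crick strand than on the Watson strand. Over the 11 windows, Crick reads of Col-0 dsRNA 1X and Col-0 smRNA had a Pearson's r of 0.83 and a Spearman's rho of 0.92, and 0.89 and 0.90 without the window of the pile. For Col-0 dsRNA 2X and Col-0 smRNA r was 0.80 and rho 0.83 on the Crick strand. On the Watson strand r was 0.16 and rho 0.44 for 1X, and r was -0.02 and rho 0.41 for 2X, or 0.39 and 0.53 for 2X without the window of the pile. Watson dsRNA reads of the cluster were few, with 36 against 182 Crick reads in 1X and 16 against 215 in 2X. The part of this depth in the difference between strands was not tested. Windows are neighbouring stretches of the same transcripts and share library and base composition, so these values are a description only.

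Both strands of the gene itself gave smRNA. Watson reads, which have the sense of the gene, numbered 3 of 3 in rdr6 dsRNA 1X, 8 of 20 in Col-0 dsRNA 2X, 20 of 55 in Col-0 dsRNA 1X, 6 of 10 in rdr6 smRNA and 442 of 748 in Col-0 smRNA. Against equal numbers, Col-0 smRNA had a sense excess at 59.1% (55.5 to 62.6; exact two-sided binomial p = 7.5e-07). This interval and p count copies of the same sequence as separate reads. By non-redundant sequences the share was 55.5%, with 186 Watson against 149 Crick (exact binomial p = 0.049), just under the threshold of 0.05. Much of the excess lay in the window of 127 Col-0 smRNA reads, with 125 Watson and 2 Crick reads. The 36.4% of Col-0 dsRNA 1X did not pass (exact binomial p = 0.058). Nor did Col-0 dsRNA 2X with 20 reads (exact binomial p = 0.50) or rdr6 smRNA with 10 (exact binomial p = 0.75). In rdr6 dsRNA 1X the exact binomial p was 0.25. With 3 reads this test cannot pass at any split, so nothing is read from it. The upstream stretch was antisense instead, with 203 of 211 reads on the Crick strand in Col-0 dsRNA 2X, 147 of 152 in Col-0 dsRNA 1X and 196 of 221 in Col-0 smRNA. Over the whole cluster the opposite leanings of gene and upstream stretch evened out to 498 Watson and 505 Crick reads in Col-0 smRNA.

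**Figure D3:**
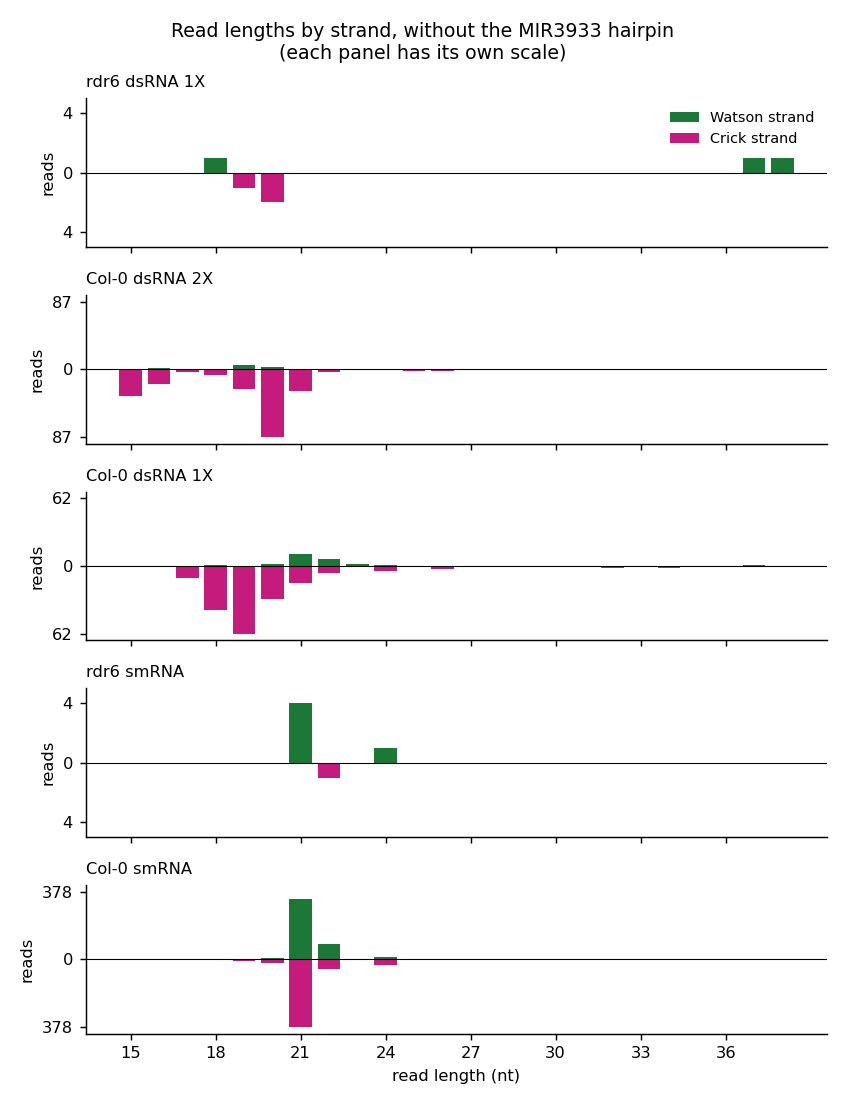
Number of reads of each length (nt) in the cluster before MIR3933, Watson strand upward and Crick strand downward, with 1 panel for each library and a scale of its own in each. Col-0 smRNA peaks at 21 nt on both strands, while Crick dsRNA reads peak at 20 nt in 2X and at 19 nt in 1X.

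Small RNAs of the locus were mostly of 21 nt, the size class that DCL4 is known to make. Before MIR3933, Col-0 smRNA had 338 Watson and 378 Crick reads of 21 nt, 83 and 54 reads of 22 nt, and 14 and 29 reads of 24 nt, of 967 in all. Inside the gene 542 of 748 reads, 72.5%, had 21 nt. This is unlike the library as a whole, in which 6.18% of mapped reads had 21 nt and 63.2% had 24 nt (4.37% and 68.4% in rdr6 smRNA). Of 25691 nuclear 1-kb bins with at least 100 reads in Col-0 smRNA, 105 (0.409%) had a share of 21-nt reads as high as the 74.9% of the bin that holds most of the gene, and the median bin had 2.56%. The adjoining bin, with the end of the gene and MIR3933, had 144 of 205 reads (70.2%) of 21 nt, against 614 of 820. This difference did not pass (Fisher's exact test, two-sided, p = 0.18), which does not show that the bins are alike. The adjoining bin includes the reads of MIR3933, 42 of 56 of them of 21 nt. In rdr6 smRNA 4 of the 6 reads before MIR3933 had 21 nt.

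In dsRNA, 21-nt reads were not the main class of the cluster before MIR3933. Crick reads were most often of 20 nt in Col-0 dsRNA 2X, with 87 reads against 28 of 21 nt. In Col-0 dsRNA 1X they were most often of 19 nt, with 62 reads against 16 of 21 nt. The few Watson reads of Col-0 dsRNA 1X did favour 21 nt, with 11 of 24. Inside the gene, away from the pile, 1 of the 20 reads of Col-0 dsRNA 2X and 17 of the 55 reads of Col-0 dsRNA 1X had 21 nt, and 3 in 2X and 9 in 1X were 26 nt or longer.

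To describe phasing, 21-nt reads were assigned to 21 registers counted from the first base of the gene, with Crick reads moved by 2 nt for the overhang of a siRNA duplex. Before MIR3933, register 14 led in Col-0 smRNA with 200 of 716 reads, 27.9% (24.8 to 31.3), where an even spread would give 4.76%. Registers 15 and 4 followed with 121 and 102 reads. Registers 13 to 15 together held 377 reads, 52.7% (49.0 to 56.3). Both strands led in register 14 on their own, with 83 of 338 Watson reads and 117 of 378 Crick reads.

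The leading register rested in part on the pile. Of its 200 reads, 77 lay in the cycle at 28 nt before the gene, which is the pile, and 52 lay in the cycle at 35 nt into the gene, where 39 were Watson and 13 were Crick reads. Without the cycle of the pile, register 14 held 123 reads or 19.2%. Its reads reached 15 of the 23 cycles, and in 5 of them both strands had reads. Register 4 was carried by 1 cycle to a greater degree, with 52 of 102 reads at 298 nt into the gene, where the Watson sequence shown above begins.

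**Figure D4:**
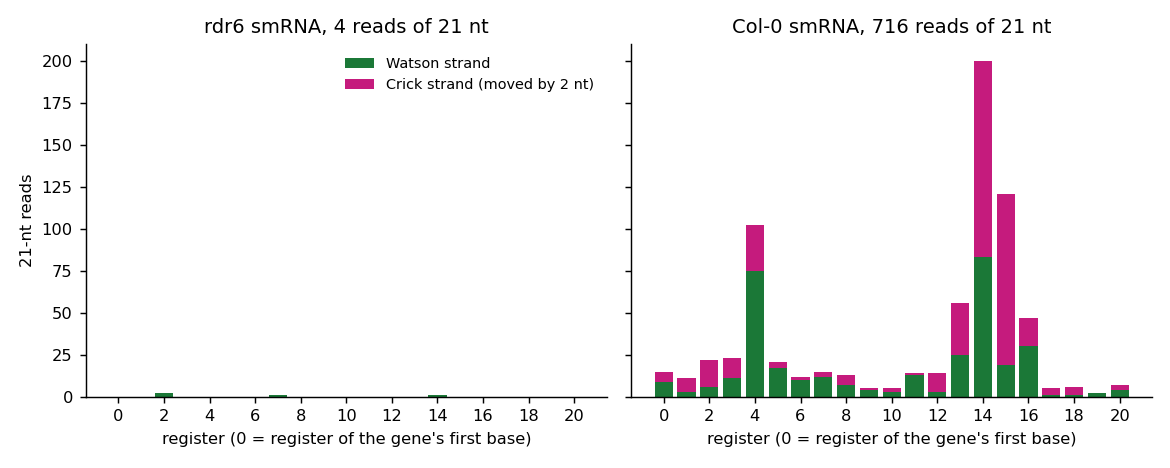
Number of 21-nt reads in each of 21 registers in the cluster before MIR3933, in rdr6 smRNA on the left and Col-0 smRNA on the right, with Watson and Crick reads stacked and register 0 at the first base of the gene. In Col-0 smRNA registers 14, 15 and 4 stand out with 200, 121 and 102 reads, and rdr6 smRNA has 4 reads in all.

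The strongest period of phase scores over 8 cycles was shorter than a siRNA. The score of a base was (n - 2) ln(1 + k), with n the cycles that hold a read and k the reads in phase, a form assumed here because the study's own formula could not be read in full, and both score and period depend on it. The highest score in Col-0 smRNA, 25.4, lay at 15757689, in register 14. The period with most power along the cluster was 10.6 nt, with 20.1% of the power (Fisher's exact g test, p = 2.9e-22, over neighbouring scores that share reads). The period nearest to 21 nt, at 20.7 nt, held 3.29%. Each score adds reads at steps of 21 nt, so scores recur along the cluster by construction. The p is therefore no evidence of phasing. Registers 14 and 4, which both hold many reads, lie 10 nt apart within the cycle of 21 nt. No absence of a 21-nt repeat is therefore read from these shares of power. In rdr6 smRNA no base had a score. Among 3897 nuclear bins with at least 100 reads of 21 nt, 730 (18.7%) had a leading register as high as the 30.0% of the bin that holds most of the gene. Of the 2531 of them with at least 25% of these reads on each strand, 163 (6.44%) did.

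The share of siRNAs with a partner on the other strand was highest at the offset of a duplex with 2-nt 3′ overhangs. Such a duplex sets the leftmost base of the Crick read 2 nt before that of the Watson read. At this offset 173 of 338 Watson reads and 255 of 378 Crick reads of 21 nt in Col-0 smRNA had a partner, 59.8% of all. A read was counted here however few reads lay opposite it. Of these Crick reads, 74 belong to the pile and have 3 Watson reads as their partner. No other offset from 10 nt before to 10 nt after came as high. The next were -1 with 40.6%, -3 with 36.5% and -10 with 34.1%. Weighted by abundance the order differed: the product of Watson and Crick reads, summed over position pairs, was 2093 at -1 and 1248 at -2, and the abundant pair shown above lies at -1.

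**Figure D5:**
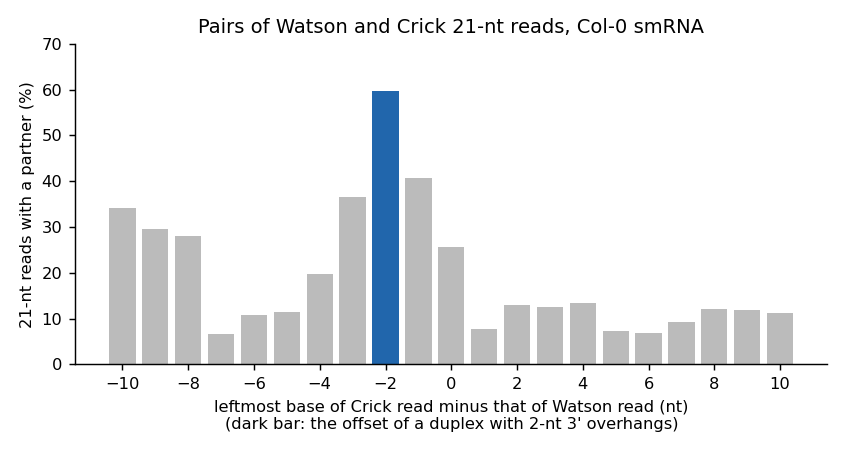
Percentage of 21-nt Col-0 smRNA reads of the cluster before MIR3933 that have a partner on the other strand, by the leftmost base of the Crick read minus that of the Watson read (nt), with the offset of a duplex with 2-nt 3′ overhangs dark. The bar at -2 reaches 59.8% and its nearest rival, at -1, 40.6%.

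The first base of a small RNA is known to steer its loading into Argonaute proteins, with uridine the base favoured by AGO1. In the 21-nt reads of Col-0 smRNA before MIR3933, uridine stood first in 19.4% (16.7 to 22.5) of reads, against 28.1% of the positions of the stretch. Watson reads began with guanosine in 50.3% (45.0 to 55.6), against 21.6% of positions. Crick reads began with cytidine in 31.7% (27.3 to 36.6), against 21.6% of positions. A few abundant positions weigh on these shares. Of the 120 Crick reads with cytidine, 74 lie at the pile position 15757687 to 15757707, so the cytidine excess rests on this 1 sequence. Of the 170 Watson reads with guanosine, 51 lie at 15758015 to 15758035 and 39 at 15757752 to 15757772. Shares and intervals count copies of a sequence as separate reads.

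At MIR3933, a hairpin at the 3′ end of the gene, rdr6 and Col-0 smRNA differed by less than counting error. Reads wholly inside it, each counted once, numbered 2 in rdr6 dsRNA 1X, 0 in Col-0 dsRNA 2X, 12 in Col-0 dsRNA 1X, 39 in rdr6 smRNA and 47 in Col-0 smRNA. In smRNA the log2 ratio of rdr6 to Col-0 was -0.33 (-0.98 to 0.32), an interval that holds 0 and lies apart from that of the cluster before it. Reads at the exact mature positions of miR3933 numbered 16 in rdr6 smRNA and 16 in Col-0 smRNA, and 0 in rdr6 dsRNA 1X, 0 in Col-0 dsRNA 2X and 10 in Col-0 dsRNA 1X. The dsRNA of the hairpin was lower in rdr6, with a log2 ratio of -2.26 (-5.46 to -0.09) that rests on 2 reads against 12. RNAfold gave the hairpin -51.4 kcal/mol and 35 base pairs, with 19 of the 21 mature bases paired. Because its arms are nearly complementary, 9 of the reads in rdr6 smRNA and 6 in Col-0 smRNA had a location on each arm, and their strand cannot be told apart.

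To describe the start of the cluster, 350 mature Arabidopsis miRNAs of RefSeq (build TAIR10.1) were searched for a complementary stretch near the gene. Apart from MIR3933 itself, only the miR447 family matched within the limit, at Chr5:15757634-15757655 on the Watson strand, in AT5G05905. In the miRNA sequence below, capitals mark the seed. In the transcript sequence, capitals mark every base that pairs with any base of the miRNA, inside or outside the seed.
miR447a-3p and miR447b: uUGGGGACgagauguuuuguug
AT5G05905 stretch: CAACAcAAgAUCUCGUCCCCAA
The pairing has 20 Watson–Crick pairs and 2 mismatches, at bases 14 and 17 of the miRNA. A match as good to this same miRNA lies in 0.00252% of 119149 nuclear 1-kb bins. The share of bins with a match as good to any of the 350 miRNAs was not counted, so this percentage does not measure how rare such a find is. The base after the bond opposite bases 10 and 11 of the miRNA, where plant miRNAs are known to guide cleavage, is 15757646. It is also the first base of the Col-0 smRNA cluster and falls in register 13, next to the leading register 14. Of the 21-nt Col-0 smRNA reads before MIR3933, register 13 held 56 (7.82%), register 14 held 200 and register 4 held 102. The cycle of register 13 that begins at 15757646 held 0 of them. At that base lay 2 Col-0 smRNA reads, 1 of them Watson, and before it in the interval there were 0 Col-0 smRNA reads, 0 reads in either Col-0 dsRNA library, and 1 read each in rdr6 dsRNA 1X and rdr6 smRNA. Reads within 2 bases of miR447a-3p and miR447b, which have the same sequence, numbered 8 in rdr6 dsRNA 1X, 2 in Col-0 dsRNA 2X, 29 in Col-0 dsRNA 1X, 159 in rdr6 smRNA and 230 in Col-0 smRNA, or 14.3 RPM in rdr6 smRNA and 21.5 RPM in Col-0 smRNA. The match is a description of letters, and cleavage was not measured here.

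Not all smRNAs of the gene can be assigned to it alone. In Col-0 smRNA 887 of the 1003 reads of the cluster had a single location. Of the other 116, 106 also matched AT4G21370, a pseudogene named PSEUDOSRKA, and 104 also matched AT4G21380 (RK3), a receptor kinase gene with an extracellular lectin domain. The upstream stretch was free of such reads, with 221 of 221 at a single location. These are among 8 regions that aligned with the gene at 66.4% to 69.8% identity, and at AT4G21380 and AT4G21370 only 0 of 104 and 4 of 110 Col-0 smRNA reads had a single location. The 2 leading reads shown above as an overlapping pair in the gene, at 15757751 and 15757752, have 3 and 4 locations. In rdr6 smRNA only 2 of the 10 reads in the gene had a single location.

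Beside the TAS genes, AT5G39370 had few reads and a weak register. It gave 748 Col-0 smRNA reads with 72.5% of 21 nt, 59.4% of these Watson and 22.1% in the leading register. TAS1a gave 13300 reads with 89.4%, 2.55% and 93.1%, and TAS3b, the TAS gene with the weakest register, gave 1447 reads with 81.8%, 67.1% and 21.4%. Watson is the forward strand of the chromosome. The strands of the TAS genes are not given here, so their Watson shares cannot be read as shares of sense reads. TAS3c, with fewer reads than AT5G39370 at 252, had 33.2% in its leading register. The log2 ratio of Col-0 dsRNA 2X to 1X was -1.88 at AT5G39370 and -2.69 to -4.94 at the TAS genes with reads in both. The value of -4.94, at TAS3c, rests on 1 read in 2X against 23 in 1X.

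Among 27443 other nuclear protein-coding genes, the ones most like AT5G39370 over the 5 libraries were CHX18 (AT5G41610), a member of the cation/proton exchanger family, at a Euclidean distance of 1.42 in log2(RPM + 0.5), then AT1G12775 at 1.83, AT1G12300 at 2.39, AT1G63230 at 2.77 and AT1G12620 at 2.83. CHX18 had 10 reads in rdr6 dsRNA 1X, 33 in Col-0 dsRNA 2X, 71 in Col-0 dsRNA 1X, 4 in rdr6 smRNA and 593 in Col-0 smRNA. Of the Col-0 smRNA reads, 589 of 593 at CHX18 and 636 of 748 at AT5G39370 had a single location. At the other 4 genes only 57 of 278, 16 of 188, 69 of 159 and 6 of 178 did, and the other reads of these genes had further locations.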

How the data were processed

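Unopened flower buds were profiled by dsRNA-seq (3 libraries) and smRNA-seq (2 libraries). The counts deposited by the authors are raw reads per non-redundant sequence with all genomic locations and are not normalized. The authors collapsed reads, trimmed 3′ adapters where found, and aligned with cross_match to TAIR9. Gene, miRNA and sequence positions came from the TAIR10.1 reference: of 20000 sequences with 2 locations, 99.97% had reference sequences alike at both (at most 2 differences). Mapped reads numbered 8193747 to 13773151 per library, and counting error is the only error measured.

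Reads were counted at every location by leftmost base in 50-nt windows, 1-kb bins, strands, lengths and registers. The exact Audic–Claverie test served to call bins. The planned test of 2X against 1X at the gene is not given, since the 1X reads took part in choosing it. Other tests were the exact binomial and Fisher tests and Fisher's g test. The miRNA search scored mismatches 1 and G:U pairs 0.5, doubled at bases 2 to 13, up to 3. Named genes are AT5G39370, the genes of the interval, the 8 TAS genes and the 5 genes nearest in log2(RPM + 0.5). The 5 leading windows of each library, and its 5 (smRNA) or 3 (dsRNA) leading sequences, were likewise taken by rule, and regions similar to the gene came from BLAST (e-value up to 1e-10). The gene, the lists and the rules were chosen with earlier results of these data known. Alternatives were locations, non-redundant sequences, scaling, lengths, strands, the wild-type library and the position of a read. Steps were tested on simulated data. RNAfold 2.7.2 and BLAST 2.17.0 were run from Python 3.11.15 (with scipy 1.17.1, numpy 2.4.6 and pandas 2.3.3), and plots were drawn in matplotlib 3.10.9.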

Additional observations from a re-analysis of the deposited data

How the results depend on the processing

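Depth limits the locus most in rdr6, where the gene has 3 dsRNA and 10 smRNA reads. The rdr6 to Col-0 log2 ratio at AT5G39370 kept its direction in every alternative run. In dsRNA it moved to -1.84 with reads of 26 nt or longer (2 against 9 reads) and to -1.99 with the 2X library for Col-0. In smRNA it moved to -8.37 with reads of 1 location (2 against 636) and to -8.00 without reads that reach MIR3933 (3 against 739), which was added once the data had been seen. The 2X to 1X log2 ratio was -2.005 with reads of 26 nt or longer (3 against 9 reads). The Watson share of Col-0 dsRNA 1X at the gene was 34.0% with reads of 1 location (exact binomial p = 0.027), past the threshold of 0.05. Register 14 led under all alternatives, with 27.0% over the whole cluster, 16.2% by non-redundant sequences, 23.1% of Watson reads, 30.7% of Crick reads and 23.8% with reads of 1 location, the last also chosen after seeing the data. The causes were not tested. Of the alternatives for these comparisons, 25 others changed no call, and none reversed a direction. No paired analysis was possible because each condition has 1 library.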
